A study of Mus musculus with 6 samples.

Results

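The Wnt family measured here comprises the secreted Wnt ligands, their Frizzled receptors and LRP co-receptors, the secreted antagonists, the R-spondins with their LGR receptors, and the Axin and TCF/LEF genes inside the cell. Members were chosen by gene symbol alone, as symbols beginning with Wnt, Fzd, Sfrp, Dkk or Rspo and a digit, or with Tcf7, together with Frzb, Lrp5, Lrp6, Axin1, Axin2, Lgr4, Lgr5, Lgr6 and Lef1. The rule found 55 of the 55471 genes in the table. There were 19 ligands, 13 Frizzled and LRP genes, 9 antagonists, 8 R-spondin and LGR genes and 6 Axin and TCF/LEF genes. Among the 55 are the opposite-strand transcripts Fzd10os and Rspo4os, which match the symbol rule but encode no receptor or ligand.

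Expression was measured by poly(A) RNA sequencing in the left atrium of male C57BL/6J mice, with 3 MR and 3 Sham libraries, given as biological replicates. In MR mice the anterior mitral leaflet was punctured under echocardiographic guidance at 10 weeks of age, which makes the valve leak (mitral regurgitation). In Sham mice of the same strain, sex and age the apex of the heart was punctured and the leaflet was left intact. Both groups were therefore operated on, and tissue from both was taken 2 weeks after surgery.

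Wnt proteins are lipid-modified signals that leave one cell and bind a Frizzled receptor, with LRP5 or LRP6 as co-receptor, on the same or a neighbouring cell. Receptor binding stops the Axin complex from destroying β-catenin, which then enters the nucleus and activates genes together with TCF/LEF factors, while ligands such as Wnt5a and Wnt11 mostly signal without β-catenin through cell polarity and calcium. In the heart the pathway is best known for its part in development and valve formation, and in the adult for its renewed activity in fibroblasts and epicardium after injury.

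Of the 55 members, 32 passed the filter on low counts and were tested, and 12 of these differed between MR and Sham with an adjusted p below 0.05 by edgeR's quasi-likelihood test. In MR, 11 rose and 1 fell. The share of tested members called was 37.5%, against 22.4% of all 15218 tested genes. Called higher were 34.4% of the tested members against 11.8% of all tested genes, and called lower were 3.12% against 10.6%. At least 2-fold higher were 8 of the risen members, and 3.99% of all tested genes were. Wnt2 and Sfrp4 are among both the 11 and the 8. Only 1 Sham library of Wnt2 and 2 of Sfrp4 lay above the filter's cutoff in 3 libraries. These members thus entered the test through MR, where they were higher. The median log2 fold change of MR over Sham was 0.40 over the 32 tested members and 0.00 over all tested genes. All 3 MR libraries lay above all 3 Sham libraries for 14 tested members (20.6% of all tested genes) and below them for 3 (21.2% of all tested genes), and the groups overlapped for 15. Rises were called in 4 of 8 tested ligands, 4 of 6 antagonists, 2 of 10 Frizzled and LRP genes and 1 of 3 R-spondin and LGR genes. None of the 5 tested Axin and TCF genes was called.

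**Figure D1:**
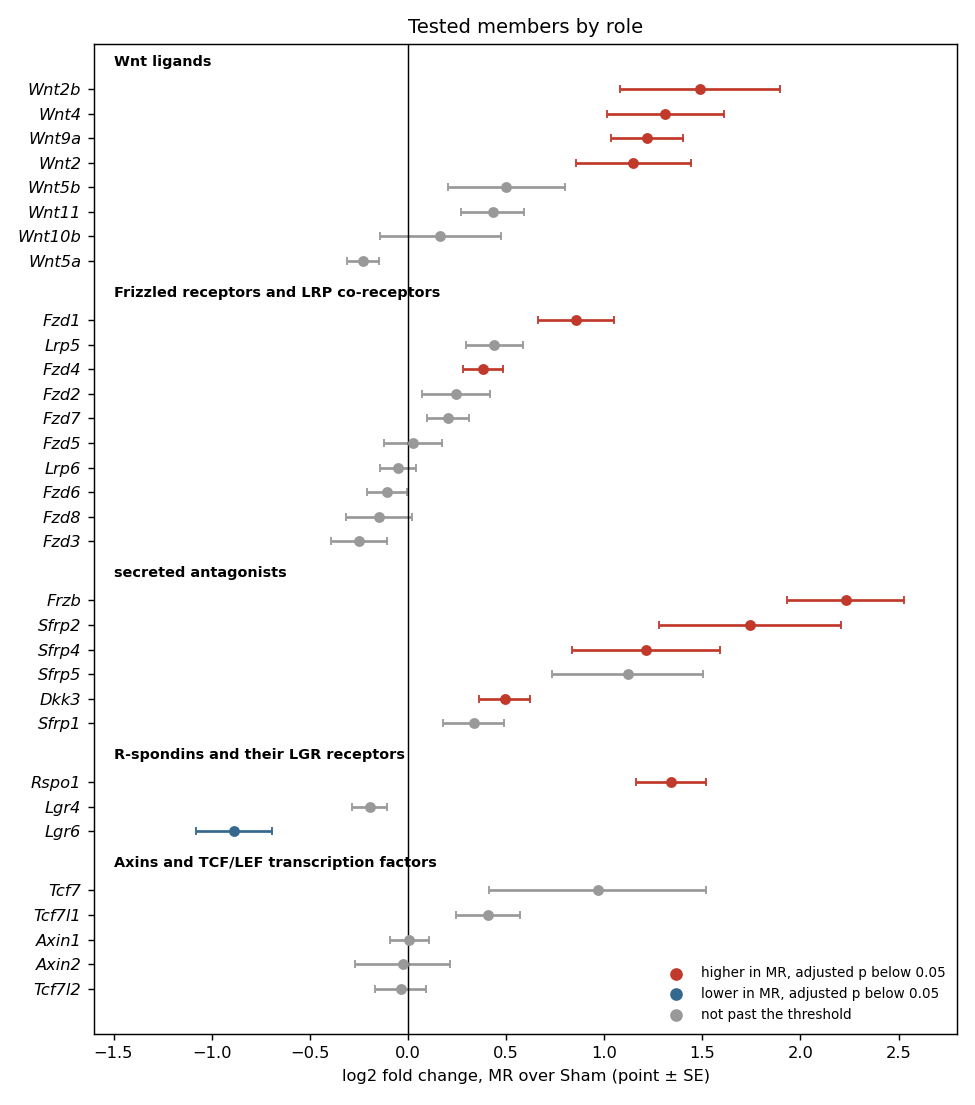
Log2 fold change of MR over Sham for the 32 tested members, grouped by role, with bars for the standard error; red points were higher and the blue point lower in MR at an adjusted p below 0.05 in edgeR's quasi-likelihood test, and grey points did not pass. Red points stand among ligands, receptors, antagonists and R-spondins, the single blue point is Lgr6, and the Axin and TCF genes are all grey.

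Gene counts per library summed to between 14124407 and 20039490, and a floor of 3 counts corresponded to 0.15 to 0.219 CPM. CPM here is the count per 1000000 of the library size after TMM scaling, which evens out differences in composition between libraries. Without that scaling the median log2 fold change of all tested genes moved to 0.21, so changes are read relative to the TMM-scaled median. Markers of atrial cardiomyocytes fitted the labelled tissue, with Nppa between 25749 and 32686 CPM, while the ventricular markers Irx4 and Hand1 had no counts in any library. The other ventricular markers were present, with Myl2 at 0.798 to 2.30 CPM in MR and 0.533 to 1.02 CPM in Sham, and Myl3 at 48.1 to 52.6 CPM in MR and 124 to 154 CPM in Sham, a log2 fold change of -1.46 (edgeR adjusted p = 9.75e-05). In bulk tissue, fewer cells of a type and less RNA per cell cannot be told apart.

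Markers of several other cell types moved with the groups. All 8 markers of epicardium and mesothelium, the cell layer over the heart, rose, and their summed level was 519, 844 and 570 CPM in MR libraries 1 to 3, against 288, 155 and 215 CPM in Sham libraries 1 to 3. Macrophage markers rose in 6 of 7 cases, with sums of 447, 384 and 329 CPM in MR and 249, 263 and 267 CPM in Sham. Fibroblast markers were less uniform, with 3 of 9 higher, 1 lower and sums of 2526, 3036 and 2844 CPM in MR and 2388, 2537 and 2121 CPM in Sham. Endothelial markers rose in 3 of 7 cases, with sums of 976, 1145 and 1111 CPM in MR and 825, 946 and 772 CPM in Sham. Of the 7 tested adipocyte markers, 6 were called higher, but Adipoq, which encodes a fat cell hormone, was at 43.9, 67.0 and 0.449 CPM in MR, so that MR library 3 stood with Sham at 0.32, 0 and 2.02 CPM. Atrial cardiomyocyte markers fell in 5 of 7 cases, with sums of 71322, 59157 and 65524 CPM in MR and 83743, 77403 and 89471 CPM in Sham. MR library 2 held the highest epicardial and lowest cardiomyocyte sum, and it also held the highest value of all 11 risen Wnt members. Among all 1793 genes called higher, 66.6% had their highest value in that library. The part of these cell type differences in the Wnt results was not tested, beyond the ratios to marker sums given further on.

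Sequences around the transcription start are shown for the 3 risen members with the smallest adjusted p, Frzb, Rspo1 and Wnt9a, and for Lgr6, the member that fell, because they are the genes on which the comparison turns. Each runs 5′ to 3′ on the gene's strand over 300 bases, from 250 before to 50 after the start, and was taken from RefSeq on GRCm38.p6, an older build than the GRCm39 named for the counts. Capitals mark GGCGCC, a GC-rich motif known to bind SMAD proteins. The windows lie at chr2:80447347-80447646 (Frzb, minus strand), chr4:124986180-124986479 (Rspo1, plus strand), chr11:59306680-59306979 (Wnt9a, plus strand) and chr1:135105227-135105526 (Lgr6, minus strand).
Frzb: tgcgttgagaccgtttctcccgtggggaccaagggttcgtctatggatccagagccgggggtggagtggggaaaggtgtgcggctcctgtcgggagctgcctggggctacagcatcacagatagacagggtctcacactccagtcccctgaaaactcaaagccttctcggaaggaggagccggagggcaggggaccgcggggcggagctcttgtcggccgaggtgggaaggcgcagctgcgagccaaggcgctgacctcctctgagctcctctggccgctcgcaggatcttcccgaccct
Rspo1: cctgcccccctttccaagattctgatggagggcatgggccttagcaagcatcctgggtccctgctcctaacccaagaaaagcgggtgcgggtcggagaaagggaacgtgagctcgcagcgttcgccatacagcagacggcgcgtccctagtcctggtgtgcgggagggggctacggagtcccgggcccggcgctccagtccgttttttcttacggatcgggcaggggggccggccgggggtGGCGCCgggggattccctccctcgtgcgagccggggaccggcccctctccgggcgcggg
Wnt9a: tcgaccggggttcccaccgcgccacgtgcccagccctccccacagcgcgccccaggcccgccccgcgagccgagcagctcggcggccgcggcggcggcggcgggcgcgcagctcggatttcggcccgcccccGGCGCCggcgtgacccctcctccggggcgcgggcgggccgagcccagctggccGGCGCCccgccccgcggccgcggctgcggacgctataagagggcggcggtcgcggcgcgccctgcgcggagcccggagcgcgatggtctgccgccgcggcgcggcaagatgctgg
Lgr6: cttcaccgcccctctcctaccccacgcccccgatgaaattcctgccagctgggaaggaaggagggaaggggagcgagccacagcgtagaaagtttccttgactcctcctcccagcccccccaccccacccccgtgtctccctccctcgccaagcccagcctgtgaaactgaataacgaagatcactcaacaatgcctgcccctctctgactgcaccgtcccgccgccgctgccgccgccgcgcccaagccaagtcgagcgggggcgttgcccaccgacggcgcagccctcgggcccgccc

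The Wnt9a window held 2 copies of GGCGCC, the Rspo1 window 1, and the Frzb and Lgr6 windows none. A window was available for 10 of the 12 called members and for 21 of the 32 tested ones. GGCGCC stood in 10 of the 21 tested members, and in 6 of the 10 called ones (Fzd4, Rspo1, Wnt2, Wnt2b, Wnt4 and Wnt9a) and in 11.9% of all 32851 windows of the same length. The 10 windows were GC-rich, from 54.0% to 84.3% GC against a median of 52.7% over all windows. GGCGCC stood in 23.2% of the 15291 windows with at least 54.0% GC. That limit is the GC share of the least GC-rich called member, so these windows are not matched in GC content. Members were counted by gene and the background by window, so the shares cannot show an enrichment. The TCF/LEF motif, searched as CTTTGAA and CTTTGAT, was in none of the 10, in 2 of the 21 (Wnt11 and Wnt5b), in 8.65% of all windows and in 4.47% of those as GC-rich. The TEAD motif GGAATG was in none of the 10, in 2 of the 21 (Lgr4 and Wnt5b), in 14.7% of all windows and in 11.4% of those as GC-rich. The GATA motif AGATAA was in 1 of the 10 (Fzd1), in 3 of the 21, in 11.2% of all windows and in 4.28% of those as GC-rich. Every motif was searched on both strands, and CTTTGAA and CTTTGAT differ only in their last letter. The motifs were chosen with the members known, and a match describes letters in this window only.

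Among the Wnt ligands, Wnt9a (ENSMUSG00000000126), a ligand known for its part in joint development, stood at 9.74, 15.6 and 11.6 CPM in MR libraries 1 to 3, against 5.06, 5.33 and 5.50 CPM in Sham libraries 1 to 3. Every MR library was above every Sham library. The log2 fold change was 1.22 ± 0.18 (SE, n = 3 each; edgeR quasi-likelihood adjusted p = 0.00307), a 2.33-fold difference. Wnt4 (ENSMUSG00000036856), which is known for kidney and ovary development, was at 2.55, 4.42 and 2.64 CPM in MR and at 1.54, 1.17 and 1.08 CPM in Sham. Its groups did not overlap either, with a log2 fold change of 1.31 ± 0.30 (edgeR adjusted p = 0.0137).

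Wnt2 and Wnt2b are related ligands, and mouse Wnt2 is known for its role in the growth of lung and atrial tissue. Wnt2 (ENSMUSG00000010797) was scarce at 1.57, 1.73 and 1.35 CPM in MR and 0.693, 0.803 and 0.578 CPM in Sham, with a log2 fold change of 1.15 ± 0.29 (edgeR adjusted p = 0.0218). Wnt2b (ENSMUSG00000027840) was at 4.77, 12.6 and 4.19 CPM in MR and 2.02, 2.63 and 3.04 CPM in Sham, with a log2 fold change of 1.49 ± 0.41 (edgeR adjusted p = 0.0278). Both were separated between groups, but Wnt2b was far higher in MR library 2 than in the other MR libraries. Without MR library 2, Wnt2b was still called higher. When MR library 3 stood alone against Sham, the Wnt2b log2 fold change was 0.72.

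Over the 6 libraries pooled, Wnt5a had the highest mean TPM of the ligands, although Wnt9a was higher in MR, and Wnt5a did not pass the test. Wnt5a, the prototype of ligands that signal without β-catenin, averaged 8.54 ± 0.577 TPM in MR and 7.92 ± 0.240 TPM in Sham (SD, n = 3 each), against 9.55 ± 2.53 TPM in MR and 3.25 ± 0.231 TPM in Sham for Wnt9a. TPM, the authors' count per transcript length and library, was used only to rank genes, since on it the median log2 ratio of MR over Sham over all tested genes was 0.33. In CPM, Wnt5a was at 27.1, 25.5 and 25.2 in MR and 30.5, 30.6 and 30.1 in Sham, so MR lay below Sham in every library with a log2 fold change of -0.23 ± 0.08 (edgeR adjusted p = 0.0735). On unscaled library totals that value was -0.022, and the authors' deposited table lists -0.32 with an adjusted p of 0.00484. Of the other tested ligands, Wnt11, Wnt5b and Wnt10b had log2 fold changes between 0.17 and 0.50 and adjusted p between 0.0758 and 0.736.

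The other 11 ligands did not pass the filter on low counts. Wnt3, Wnt3a, Wnt7a, Wnt8a and Wnt10a had no count in any library, and Wnt1, Wnt8b and Wnt16 had at most 8 counts over the 6 libraries. Wnt9b, a ligand best known from kidney development, had 15, 8 and 14 counts in MR and 4, 2 and 2 in Sham, a depth-corrected ratio of 4.20 (95% exact Clopper-Pearson interval 1.93 to 10.4, counting error only). The groups did not overlap, and in a fit of all genes with a count, without the filter, the edgeR adjusted p of Wnt9b was 0.0141. It also passed the filter and was called without MR library 2. Wnt6 had 14, 5 and 6 counts in MR and 6, 0 and 3 in Sham, which overlapped. Wnt7b had 24 counts in MR and 16 in Sham.

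Of the Frizzled receptors, Fzd1 (ENSMUSG00000044674), which couples to the β-catenin branch, was at 20.4, 31.6 and 18.4 CPM in MR and 14.1, 11.3 and 13.2 CPM in Sham. Each MR value was above each Sham value, with a log2 fold change of 0.86 ± 0.19 (edgeR adjusted p = 0.0138). Fzd4 (ENSMUSG00000049791), the receptor of the retinal vessel signal norrin as well as of Wnts, had the highest TPM of the Frizzled genes and stood at 134, 160 and 151 CPM in MR and 109, 111 and 122 CPM in Sham. Its difference was smaller, a log2 fold change of 0.38 ± 0.10 (edgeR adjusted p = 0.0236), and the groups did not overlap.

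The co-receptors Lrp5 and Lrp6 were not called. Lrp5 was at 31.2, 41.7 and 35.1 CPM in MR and 21.5, 30.5 and 27.8 CPM in Sham, non-overlapping, with a log2 fold change of 0.44 ± 0.14 (edgeR adjusted p = 0.0522). It was called in 7 of the 15 alternative fits, with adjusted p from 0.00248 to 0.217 over all 15, and the authors' deposited table lists an adjusted p of 0.00159. Lrp6, more abundant per length, was at 112, 122 and 122 CPM in MR and 119, 129 and 120 CPM in Sham, with a log2 fold change of -0.05 ± 0.09 (edgeR adjusted p = 0.722). The 6 other tested Frizzled genes, Fzd2, Fzd3, Fzd5, Fzd6, Fzd7 and Fzd8, overlapped between the groups, with log2 fold changes from -0.25 to 0.24 and adjusted p from 0.192 to 0.919. Without TMM scaling Fzd6, Fzd8 and Lrp6 changed sign, to 0.10, 0.06 and 0.16. Fzd9 had 29 counts in MR and 28 in Sham, and Fzd10 and Fzd10os had 3 and 6 counts over all libraries.

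Secreted antagonists bind Wnt proteins (the Sfrp family and Frzb) or their LRP co-receptors (most Dkk proteins). Frzb (ENSMUSG00000027004), also called secreted Frizzled-related protein 3 and known from cartilage, had the largest log2 fold change of the called members. It stood at 9.35, 20.2 and 10.9 CPM in MR and 2.98, 2.26 and 3.33 CPM in Sham, well separated, with a log2 fold change of 2.23 ± 0.30 (edgeR adjusted p = 0.00204), which is 4.69-fold. Sfrp2 (ENSMUSG00000027996), a fibroblast product in many tissues, was at 12.4, 51.8 and 17.1 CPM in MR and 9.11, 9.19 and 5.78 CPM in Sham. The groups did not overlap, but MR library 2 was far above the other MR libraries. The log2 fold change was 1.74 ± 0.46 (edgeR adjusted p = 0.0256). Without MR library 2 it was 0.88, and Sfrp2 was still called higher.

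Dkk3 (ENSMUSG00000030772), a Dickkopf relative that is not an established LRP inhibitor, was by far the most abundant member per length, at 947 ± 129 TPM in MR and 533 ± 73.0 TPM in Sham. It made up 85.6% to 88.7% of the summed antagonist TPM in MR libraries and 88.3% to 91.6% in Sham libraries. In CPM it was at 1143, 1388 and 1172 in MR and 771, 893 and 964 in Sham, without overlap. The log2 fold change was 0.49 ± 0.13 (edgeR adjusted p = 0.0239), whereas the authors' deposited table lists a log2 fold change of 0.05 with an adjusted p of 0.756. Sfrp4 (ENSMUSG00000021319), a scarce antagonist, was at 1.83, 3.46 and 2.00 CPM in MR and 1.01, 1.53 and 0.578 CPM in Sham, with a log2 fold change of 1.21 ± 0.38 (edgeR adjusted p = 0.0441). Its groups were separate by a narrow margin.

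Sfrp5, known as a signal secreted by fat cells, was at 67.0, 18.3 and 32.9 CPM in MR and 23.5, 13.4 and 17.1 CPM in Sham. The groups overlapped and MR library 1, not 2, was highest, with a log2 fold change of 1.12 ± 0.39 (edgeR adjusted p = 0.0628). Sfrp1 was at 57.0, 90.5 and 67.7 CPM in MR and 55.7, 52.3 and 62.5 CPM in Sham, with overlap (log2 fold change 0.34 ± 0.15, edgeR adjusted p = 0.144). The classical LRP inhibitors were barely present, with 3 counts of Dkk1 over all libraries, 13 of Dkk2 and none of Dkk4.

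**Figure D2:**
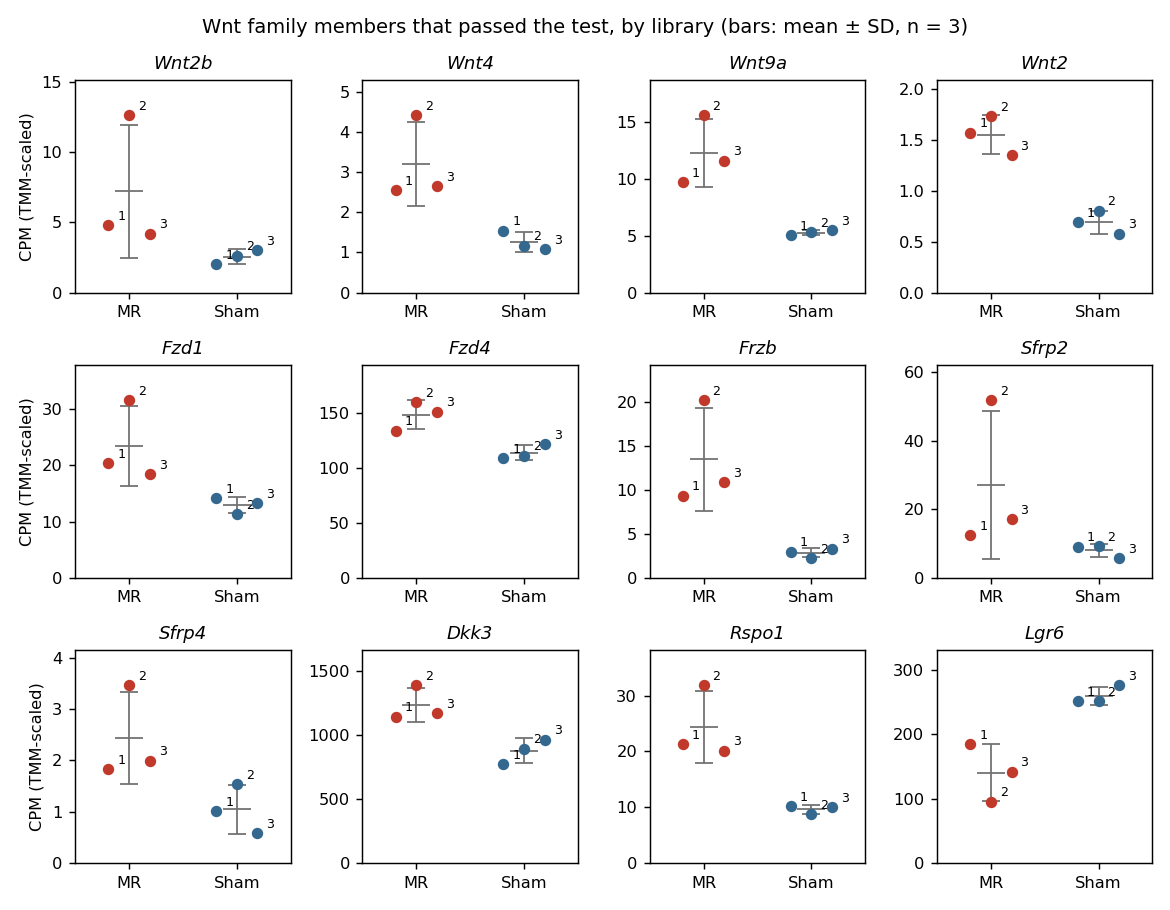
CPM of each of the 12 called members in the 3 MR and 3 Sham libraries, one panel per gene with its own linear axis, points numbered by library and bars for the mean ± SD (n = 3). MR points lie above Sham points in 11 panels, MR library 2 is the highest point in each of those, and in the Lgr6 panel the MR points lie below.

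R-spondins are secreted proteins that bind LGR receptors and keep Frizzled proteins on the cell surface, which strengthens Wnt signals. Rspo1 (ENSMUSG00000028871) was at 21.3, 31.8 and 20.2 CPM in MR and 10.2, 8.68 and 9.98 CPM in Sham, a clear separation. Its log2 fold change was 1.34 ± 0.18 (edgeR adjusted p = 0.00204), or 2.53-fold. Lgr6 (ENSMUSG00000042793), one of the LGR receptors and second among all members in mean TPM over the 6 libraries pooled (52.7 TPM in MR, where Fzd4 and Sfrp5 averaged more, and 77.4 TPM in Sham), ran the other way at 184, 95 and 142 CPM in MR and 251, 252 and 276 CPM in Sham. Every MR library was below every Sham library, with a log2 fold change of -0.89 ± 0.19 (edgeR adjusted p = 0.0125).

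The atrial cardiomyocyte markers were lower in MR too. As a share of the summed CPM of the 7 atrial cardiomyocyte markers, Lgr6 was 0.258%, 0.161% and 0.217% in MR and 0.300%, 0.325% and 0.308% in Sham, so the groups stayed apart. Lgr4, the more widely expressed relative, was at 33.5, 29.1 and 33.8 CPM in MR and 35.6, 37.5 and 37.2 CPM in Sham, below in every MR library but not called (log2 fold change -0.19 ± 0.09, edgeR adjusted p = 0.144). Without TMM scaling its log2 fold change was 0.01. Lgr5, a stem cell marker and β-catenin target, did not pass the filter, with 5, 23 and 1 in MR and 1, 1 and 3 in Sham. The groups overlapped and 1 library held most of the counts, although its adjusted p was 0.0145 in the edgeR fit without the filter. Rspo3 had 15, 6 and 12 counts in MR and 5, 3 and 4 in Sham, a ratio of 2.50 (95% exact Clopper-Pearson interval 1.26 to 5.31, counting error only). In the edgeR fit without the filter the adjusted p of Rspo3 was 0.154, so it was not called there. Rspo2 had 13 counts in MR and 6 in Sham, and Rspo4 and Rspo4os had none.

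Inside the cell, Axin2, the scaffold gene that β-catenin itself commonly switches on, was at 8.89, 11.3 and 5.14 CPM in MR and 8.58, 8.10 and 8.89 CPM in Sham. MR libraries lay on both sides of Sham, with a log2 fold change of -0.03 ± 0.24 (edgeR adjusted p = 0.947), and the value was 0.24 without MR library 3 and -0.74 with MR library 3 alone for MR (edgeR adjusted p = 0.0613). Axin1, the constitutive scaffold of the destruction complex, was at 24.1, 23.9 and 21.4 CPM in MR and 22.6, 21.6 and 24.9 CPM in Sham (log2 fold change 0.01 ± 0.10, edgeR adjusted p = 0.964).

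Tcf7, which encodes the T cell factor TCF1, was at 0.785, 3.52 and 0.948 CPM in MR and 1.01, 0.730 and 0.868 CPM in Sham, with overlap (log2 fold change 0.97 ± 0.55, edgeR adjusted p = 0.232). It was high in MR library 2 alone. The summed level of the 10 T and B lymphocyte markers was 7, 31.2 and 6.38 CPM in MR and 2.66, 3.21 and 4.41 CPM in Sham, highest in the same library. Tcf7l1, usually a repressor, was at 16.3, 22.9 and 16.4 CPM in MR and 11.8, 14.2 and 15.9 CPM in Sham, above in every MR library but not called (log2 fold change 0.41 ± 0.16, edgeR adjusted p = 0.0989). Tcf7l2 was at 21.5, 17.6 and 17.9 CPM in MR and 17.4, 22.4 and 18.7 CPM in Sham, and overlapped. Lef1 had 6 counts in MR and 2 in Sham.

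**Figure D3:**
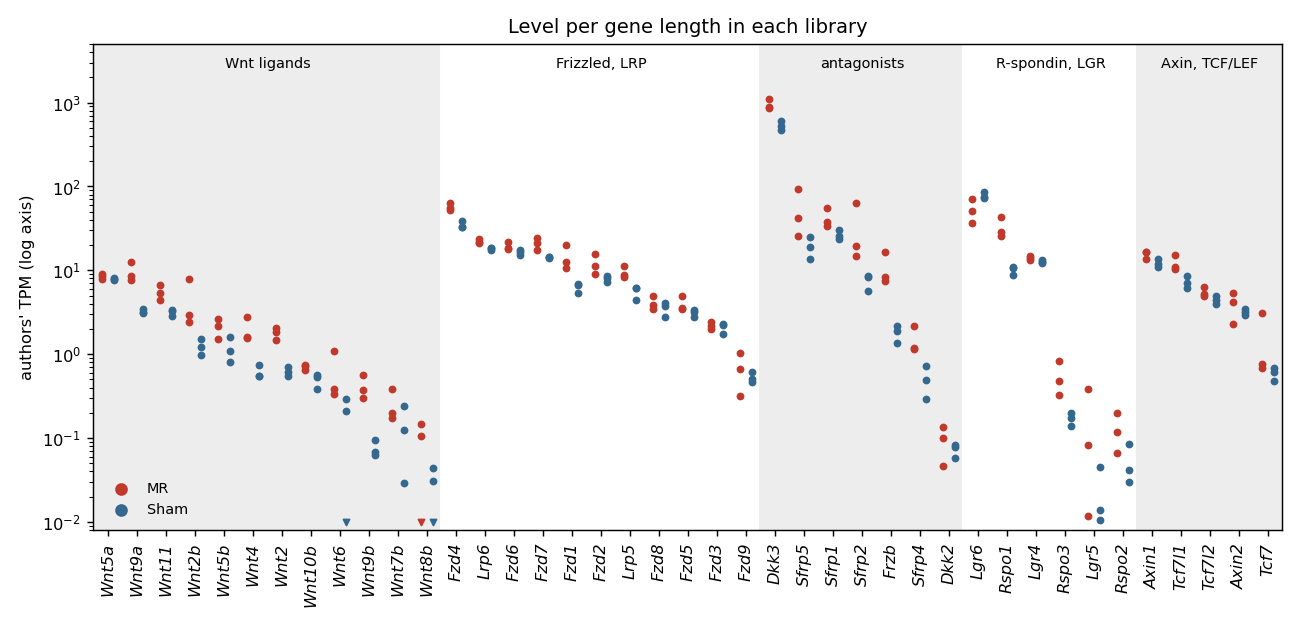
TPM on a log axis of members with a mean above 0.05 TPM, in each MR and Sham library, ordered by role, with values of 0 drawn as triangles at 0.01. Dkk3 lies highest in every library, and Lgr6 lies second in all 3 Sham libraries but below other members, such as Fzd4 or Sfrp5, in each MR library.

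The level of the risen members was also set against the marker sums within each library. Relative to the 8 epicardial markers, 1 of the 11, Frzb, was above Sham in every MR library, at 1.80%, 2.40% and 1.92% of the marker sum in MR and 1.04%, 1.46% and 1.55% in Sham. Dkk3, Fzd1 and Fzd4 were below Sham, and the other 7 overlapped, among them Rspo1 at 4.11%, 3.77% and 3.54% in MR and 3.53%, 5.59% and 4.64% in Sham. Relative to the fibroblast markers 9 of the 11 stayed above and 2, Dkk3 and Fzd4, overlapped. Relative to the endothelial markers 7 stayed above and 4 overlapped. These ratios were added after the data were seen and carry no test.

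**Figure D4:**
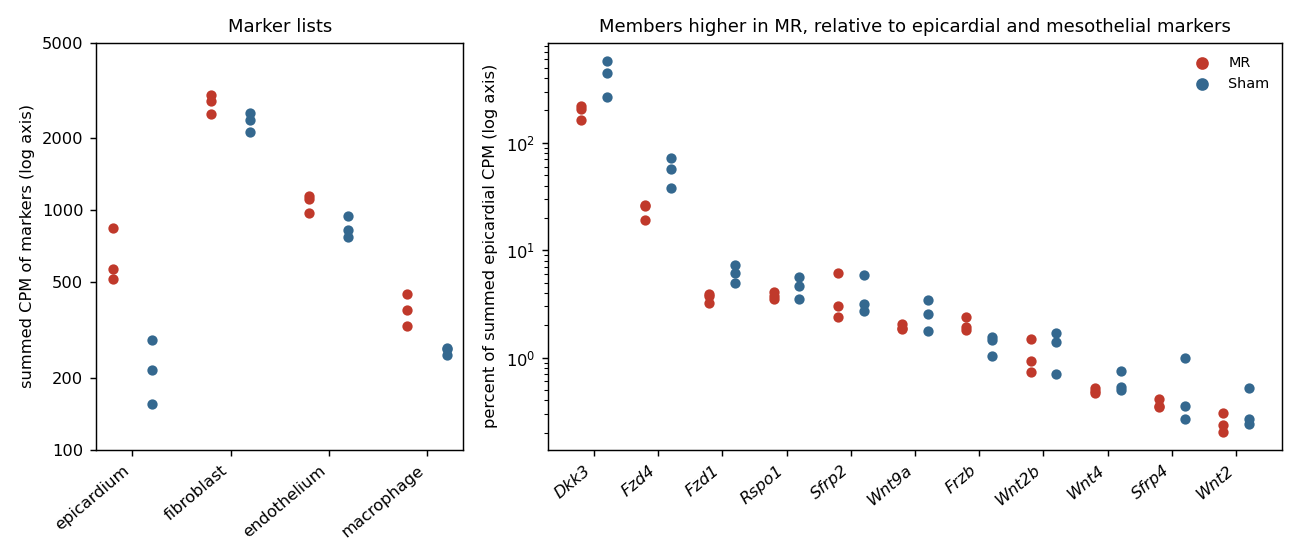
Left, summed CPM of the epicardial, fibroblast, endothelial and macrophage markers on a log axis, 1 point per MR or Sham library. Right, the CPM of each of the 11 risen members as a percentage of the summed epicardial marker CPM of the same library, on a log axis. The MR points of Frzb lie above the Sham points, those of Dkk3, Fzd1 and Fzd4 lie below, and the rest overlap.

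Other genes of the pathway were read from lists of secretion factors, other receptors, cytoplasmic and nuclear components, common β-catenin targets and the calcium branch. Of 97 such genes that are not members, 88 were tested, 18 rose, 9 fell and 61 were not called, and their median log2 fold change was 0.05. The split depended on scaling, with 36 higher and 0 lower on unscaled library totals. There all tested genes gave 4025 higher and 574 lower. With TMM, 1793 (11.8%) of all tested genes were higher and 1615 (10.6%) lower. Ccnd1, the cell cycle gene for cyclin D1, was at 78.3, 99.2 and 76.6 CPM in MR and 35.7, 46.4 and 43.9 CPM in Sham, without overlap (log2 fold change 1.01 ± 0.13, edgeR adjusted p = 0.00193). Of the 20 common β-catenin targets, members included, 13 were tested and 4 rose (Ccnd1, Cd44, Sox9 and Myc), where 11.8% of all tested genes rose. None of the targets fell and 9, Axin2 and Tcf7 among them, were not called.

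Among extracellular regulators, Gpc3, a glypican that holds Wnts and other signals at the cell surface, was at 58.9, 94.2 and 57.5 CPM in MR and 36.5, 18.9 and 27.8 CPM in Sham (log2 fold change 1.33 ± 0.24, edgeR adjusted p = 0.00623). Tinagl1, a matrix protein, was at 44.7, 51.5 and 43.9 CPM in MR and 25.8, 28.1 and 27.7 CPM in Sham (0.78 ± 0.09 on the log2 scale, edgeR adjusted p = 0.00131). Neither overlapped between groups. Of the cytoplasmic genes, Nkd2, an inhibitor that binds Dishevelled, rose with a log2 fold change of 1.21 ± 0.28, Daam2, a formin that binds Dishevelled, with 0.57 ± 0.11, and the kinase gene Csnk1e with 0.44 ± 0.09.

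In the nucleus the co-repressor gene Tle3 rose by 0.40 ± 0.10 on the log2 scale, while Tle5, a short relative that lacks the repressor end, fell, at 427, 423 and 398 CPM in MR and 575, 521 and 588 CPM in Sham (log2 fold change -0.43 ± 0.10, edgeR adjusted p = 0.0147). The adhesion receptor gene Cd44 rose by 0.52 ± 0.10 and the calcium-responsive factor gene Nfatc4 by 0.48 ± 0.12. Sost, whose product sclerostin inhibits LRP5 and LRP6 in bone, was outside the naming rule and was picked after its values were seen. It was at 9.22, 51.0 and 17 CPM in MR and 6.07, 7.52 and 5.13 CPM in Sham (log2 fold change 2.04 ± 0.52, edgeR adjusted p = 0.0211), with MR library 2 highest, as for Sfrp2.

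The members Frzb, Rspo1, Wnt9a and Lgr6, were called with the same sign in all 15 alternative fits, the highest adjusted p being 0.0168, 0.0138, 0.0222 and 0.0473. With MR library 3 alone for MR, whose Adipoq level lay within the Sham range, these 4 and Sfrp2 were called. The other calls ended in at least 2 alternatives each. Leaving out 1 library changed the count of risen members most for Sham libraries 1, 2 and 3, to 5, 4 and 6. It was 9 without MR library 2, 8 without MR library 3 and 13 without MR library 1. Calls over all genes fell as well, from 1793 higher to 838, 997 and 1247 without Sham libraries 1, 2 and 3. Without MR libraries 2, 3 and 1 they were 1087, 1527 and 1736. The authors' deposited table lists an adjusted p below 0.05 for 13 members that were higher and 3 that were lower, and 11 of the 12 calls made here were among them.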

How the data were processed

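Left atrial RNA of MR and Sham mice was made into stranded poly(A) libraries, 3 per group, and sequenced from both ends (NovaSeq), per the labels' protocols. The submitters' processing notes name fastp, HISAT2 2.1.0, featureCounts of Subread 2.0.1, DESeq2 and GRCm39. Whether counting used strand, and with which annotation, is not given in the sources used here. The deposited values are counts per gene, not normalized, and TPM, both per the file headers. The authors also deposited a log2 fold change, a p-value and an adjusted p-value, per the file headers, which are quoted only as theirs; 3104 genes without a count in any library carry a fold change there, so the libraries behind it are unclear.

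Counts were tested with edgeR 4.0.16 in R 4.3.3 (quasi-likelihood test, TMM, filterByExpr with a minimum count of 10, 2-group design, Benjamini-Hochberg adjustment over all 15218 tested genes, threshold 0.05). The filter's cutoff was 0.673 CPM in 3 libraries, and 4 tested members (Wnt2, Sfrp4, Tcf7 and Wnt10b) had fewer than 3 Sham libraries above it. SE is the log2 fold change over the square root of F. Ratios of group totals carry exact 95% Clopper-Pearson intervals. Alternatives were DESeq2 size factors, library totals, no filter, a filter of 1 CPM in 3 libraries, DESeq2 1.42.0, limma 3.58.1 voom, a robust dispersion, a replicate block, each library left out, and MR library 3 alone against Sham. The edgeR step was tested on simulated data. Members and lists were chosen with earlier results of these data known. Values per library are given for called members, the 2 tested members per role with the highest TPM, and Axin2, Tcf7 and Lgr5. Lgr5 is given as counts and Lef1 as group totals, since neither was tested. Of other pathway genes, up to 10 called ones with the smallest p and at least 1 TPM are named. Further members named with values were chosen after their values were seen. In GENCODE M21 on GRCm38, exons of 7 of the 32 tested members (Axin2, Fzd5, Fzd6, Sfrp2, Tcf7l1, Wnt11 and Wnt5a) overlap a gene on the opposite strand; that gene had 3 counts in MR and 4 in Sham for Sfrp2, and 16 and 6 for Wnt5a. The labels used here do not state if atria were pooled, and p-values measure the spread between libraries.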

Additional observations from a re-analysis of the deposited data

How the results depend on the processing

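The 11 risen members kept their direction in all alternatives, as did Lgr6. On unscaled library totals 17 members rose, and 36 other pathway genes rose and 0 fell, with 4025 of all 15218 tested genes called higher. Without the filter on low counts 17 of 47 tested members rose, and 2447 of all 28032 genes in that fit were called higher. With MR library 3 alone against Sham, assumed to vary like the Sham libraries, 976 genes were called in all, 4 members rose, and 4 other pathway genes rose and 0 fell. Leaving out each library in turn gave 1583 to 3453 calls over all genes, 4 to 13 risen members, 1 to 1 fallen members, 6 to 13 risen other pathway genes and 0 to 8 fallen ones. With the replicate number as a block, 13 members rose and 1 fell, and over all tested genes 1702 were higher and 1383 lower. Same-numbered libraries had correlations of deviations of -0.0098, -0.0101 and -0.186. With 3 libraries a group these values cannot settle if same-numbered libraries belong together, and the main test treats the numbers as names only.

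Calls ended for Wnt2 (0.0522 to 0.267), Sfrp4 (0.051 to 0.268), Wnt2b (0.0606 to 0.181), Sfrp2 (0.066 to 0.156), Dkk3 (0.0501 to 0.146), Wnt4 (0.0511 to 0.116), Fzd1 (0.0572 to 0.108) and Fzd4 (0.0591 to 0.102), with the adjusted p of those alternatives in parentheses; DESeq2 ended Wnt2 and Sfrp4, and voom and the robust dispersion ended Wnt2b and Sfrp2. Calls were gained for Lrp5 in 7 alternatives, Sfrp5 in 4, Sfrp1 in 3, Tcf7l1 in 2, and Wnt11 and Fzd7 in 1 each. The causes were not tested. Sign changes touched members that were not called. On library totals the log2 fold changes were 0.19 for Axin2, 0.10 for Fzd6, 0.17 for Tcf7l2, 0.16 for Lrp6, 0.060 for Fzd8 and 0.011 for Lgr4. Axin1 was at -0.0049 without the filter, -0.0012 with DESeq2, -0.11 with MR 3 alone, and between -0.040 and 0.061 with 1 library left out. With 1 library left out, Tcf7l2 lay between -0.15 and 0.069, Fzd5 between -0.12 and 0.086, Axin2 between -0.29 and 0.24, and Tcf7 between -0.0065 and 1.28. With MR 3 alone Axin2 was at -0.74, Fzd5 was at -0.11 and Fzd2 at -0.090.

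With 3 libraries a group, 23 members did not pass the filter; 15 of them have counts and enter the fit without it, and the 8 with no count in any library are undetected at this depth.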
